A study of Mus musculus with 10 samples.

Results

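Blood cells that expressed Cd7 or Lmo1 were examined within a sorted population of mouse blood phagocytes that carry the CSF1 receptor CD115 but lack the monocyte markers Ly6C and CD43, and are therefore called double-negative (DN). A DN blood cell of dataset 1 was taken when it had at least 1 UMI (unique molecular identifier, a counted mRNA molecule) of Cd7 or Lmo1 and 0 UMIs of Mrc1. This gave 604 cells of 2118 DN blood cells, or 28.5% (95% exact binomial interval 26.6% to 30.5%), among 15348 cells used in 2 datasets. They are called Cd7/Lmo1 cells here, and the 1514 remaining DN cells of dataset 1 are the cells they were compared with. Because detected UMIs chose the cells, their levels in dataset 1 are a description without a test, and dataset 2, which the choice did not use, is given beside them.

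All mice were C57BL/6Rj females. Blood came from mice given clodronate liposomes intravenously 9 days before collection, a treatment that depletes phagocytes and was used to raise the number of DN cells, and no blood from untreated mice was measured, so the cells are those of recovering blood. Peyer's patch phagocytes, namely LysoDCs (lysozyme-expressing phagocytes) and type 2 conventional dendritic cells (cDC2s), came from untreated mice. In dataset 1, Ly6C+ monocytes, CD43+ monocytes and DN cells (gated as CD115 high, Ly6C-, CD43-, CD11b+ and SIRPa+) were pooled from the blood of 20 mice, and the patch cells from 30 mice, and hashtag antibodies were added after the sort. Dataset 2 pooled blood of 18 mice and patches of 20 mice, with hashtags added before the sort, and its CCR2+ and CCR2- DN gates shared 1 hashtag and could not be told apart. Each group was therefore 1 sum of cells from 1 pool per dataset, and the cells were chosen by the genes compared. No test was made, and the 95% intervals cover counting error only.

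CD7 is an immunoglobulin-superfamily receptor best known from T cells, natural killer cells and early lymphoid progenitors. LMO1 is a LIM-only protein, a transcriptional cofactor without DNA-binding activity of its own that joins LDB1-containing complexes. FGFR1 is a receptor tyrosine kinase for fibroblast growth factors, CD209d belongs to the DC-SIGN family of C-type lectins, and MRC1 is the mannose receptor of macrophages and some dendritic cells. Circulating precursors and dendritic cells share parts of the monocyte programme, so genes of both lineages are described.

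On GRCm38, Cd7 lies at chr11:121036747-121039418 and Lmo1 at chr7:109138572-109175207, both on the minus strand. Fgfr1 lies at chr8:25513654-25575718 on the plus strand and Cd209d at chr8:3871824-3878555 on the minus strand, within the Cd209 lectin family. Of the 4 marker genes, the RefSeq promoter table (GRCm38.p6) holds Lmo1 and Cd209d, and bases before their starts are shown because both genes mark the cells described. RefSeq starts Cd209d further downstream than the gene model given above, so the last 56 bases of its 250-base window lie inside that model and are not printed. The stretches shown are chr7:109175208-109175457 for Lmo1 and chr8:3878556-3878749 for Cd209d, both read 5′ to 3′ on the minus strand, with motif matches in capitals. Lmo1 has 2 starts in the table and the window of 1 is shown.
Lmo1: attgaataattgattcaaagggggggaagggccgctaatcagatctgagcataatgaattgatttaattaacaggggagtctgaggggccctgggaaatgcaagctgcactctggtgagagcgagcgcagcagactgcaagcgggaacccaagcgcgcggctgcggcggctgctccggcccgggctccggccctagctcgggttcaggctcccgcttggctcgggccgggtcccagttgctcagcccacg
Cd209d: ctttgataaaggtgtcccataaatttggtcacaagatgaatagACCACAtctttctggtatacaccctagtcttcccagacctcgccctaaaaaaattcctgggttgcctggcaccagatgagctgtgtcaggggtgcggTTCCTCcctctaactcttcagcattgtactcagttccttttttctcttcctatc
In the 250 bases before each RefSeq start, 3 motifs were searched on both strands: GAGGAA (PU.1 core), TGTGGT (RUNX core) and CAGGTG (E-protein E-box). The Cd209d window held GAGGAA once, at position -110 from the start, and TGTGGT once, at -207, both on the reverse strand, which shows them as TTCCTC and ACCACA. Of 27025 such windows, 23.1% held GAGGAA, 14.2% TGTGGT and 17.1% CAGGTG. None of the 3 strings was found in the Lmo1 window.

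Of the 604 Cd7/Lmo1 cells, 199 had both genes, 145 had Cd7 without Lmo1 and 260 had Lmo1 without Cd7. At the edge of the rule, 263 cells had a single UMI of the pair, 138 had 2 and 203 had 3 or more. Just outside it, 249 DN cells had Cd7 or Lmo1 together with Mrc1, and 133 of them were kept out by a single Mrc1 UMI. A further 335 had Mrc1 alone and 930 had none of the 3 genes. Cd7 came to 243 counts per 1000000 UMIs (CPM) in the Cd7/Lmo1 cells and 16.7 CPM in the other DN cells, and Lmo1 to 232 and 49.3 CPM, as the rule required. Detection depends on depth: the median was 4850.5 UMIs per Cd7/Lmo1 cell and 4315.5 per other DN cell, and a cell without a UMI may still express the gene.

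Cd7 and Lmo1 were found in the same DN cells more often than independent detection would give. Both were seen in 237 of the 2118 cells, against 131 expected, and 1.72 times the expected number remained after every cell was thinned to 1000 UMIs. Cd7 and Mrc1 went the other way, with 61 cells against 112 expected, and 0.373 times the expected number after thinning (5 cells against 13.4). In dataset 2 the observed number before thinning was 1.33 times the expected one for Cd7 with Lmo1 and 0.743 times for Cd7 with Mrc1. After thinning these were 1.30 and 0.458 times. Lmo1 and Mrc1 were near independence after thinning, at 0.916 times the expected number in dataset 1 and 0.893 times in dataset 2.

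The combination of the genes differed between the sorted populations. In dataset 1, Cd7 was found in 19.1% of DN cells, 29.5% of immature cDC2s and 26.3% of maturing cDC2s, but in 0.544% of Ly6C+ and 0.439% of CD43+ monocytes. Its level was 87.2 CPM in all DN cells, 89.3 CPM in immature cDC2s and 2.20 CPM in Ly6C+ monocytes. Lmo1 had another distribution: it was found in 32.3% of DN cells and 13.1% of Ly6C+ monocytes, and in 1.09% of immature cDC2s. Its level was 106 CPM in DN cells, 34.8 CPM in Ly6C+ monocytes, 5.24 CPM in CD43+ monocytes and 1.82 CPM in immature cDC2s. Shares were low in CD43+ monocytes, with a median of 2969.5 UMIs per cell. They were also low in the 4 LysoDC subsets (0.706% to 2.56% for Cd7, at medians of 10565 to 14346 UMIs). The part of free RNA and strays in these low shares was not tested. In dataset 2, Lmo1 was again found in DN cells (36.5%) and Ly6C+ monocytes (15.2%) and in 0.945% of CD43+ monocytes, and Cd7 in 18.6% of DN cells and 0.346% of Ly6C+ monocytes.

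**Figure D1:**
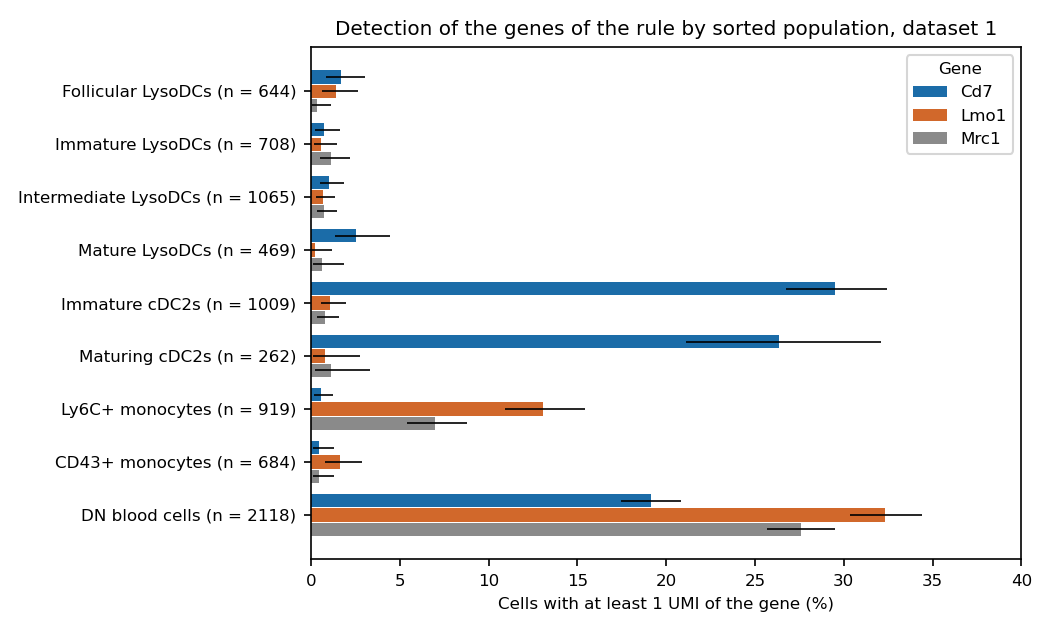
Share of cells (%, horizontal axis) with at least 1 UMI of Cd7, Lmo1 or Mrc1 in each sorted population of dataset 1, with 95% exact binomial intervals. DN blood cells had all 3 genes in 19.1%, 32.3% and 27.6% of cells, cDC2s had Cd7 and little Lmo1, and Ly6C+ monocytes had Lmo1 and little Cd7.

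The rule applied to all populations was met by 298 of 1009 immature cDC2s (29.5%) and 70 of 262 maturing cDC2s (26.7%), close to the share of DN cells, but through Cd7 alone in nearly all of them. It was met by 115 of 919 Ly6C+ monocytes (12.5%), nearly all through Lmo1, by 13 of 684 CD43+ monocytes (1.90%) and by 0.847% to 2.64% of the LysoDC subsets. At 1000 UMIs per cell the share was 14.0% of DN cells, 9.61% of immature cDC2s and 3.48% of Ly6C+ monocytes. In dataset 2 the rule was met by 1666 of 4971 DN cells, or 33.5% (32.2% to 34.8%), with a median of 6167 UMIs, against 4705 in the other 3305 DN cells. Of these 1666, 349 had both genes, 420 Cd7 without Lmo1 and 897 Lmo1 without Cd7.

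The other marker genes of these cells, Cd209d and Fgfr1, were chosen with earlier results of these data known. Their levels in dataset 1 are therefore a description. Cd209d stood at 95.04 CPM in Cd7/Lmo1 cells and 45.8 CPM in the other DN cells of dataset 1 (ratio 2.08, interval 1.76 to 2.45), and at 49.3 and 38.8 CPM in dataset 2 (1.27). It was at 0.836 CPM in immature LysoDCs, 1.17 CPM in immature cDC2s and 1.22 CPM in Ly6C+ monocytes, so among the populations measured its RNA was mainly in DN cells. Fgfr1 stood at 38.2 and 16.7 CPM in dataset 1 (2.29, 1.75 to 2.99) and at 56.4 and 39.0 CPM in dataset 2 (1.44). Fgfr1 was at 2.85 CPM in immature cDC2s and had 0 UMIs in the 919 Ly6C+ and the 684 CD43+ monocytes of dataset 1, which allows up to 0.735 and 1.21 CPM (3 counts of the total). Both genes were thus higher in the Cd7/Lmo1 cells than in all other DN cells of both datasets, with smaller ratios in dataset 2. DN cells with Mrc1 alone, which are among those others, had Cd209d at 58.1 CPM in dataset 1 and 50.2 CPM in dataset 2, so Cd209d was not particular to the Cd7/Lmo1 cells. Their Fgfr1 stood at 11.1 and 26.2 CPM. In cells with none of the 3 genes Fgfr1 stood at 15.0 CPM in dataset 1 and 48.1 CPM in dataset 2. The latter was near the 56.4 CPM of cells meeting the rule there.

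Of 7088 genes with at least 100 UMIs over both groups (eligible genes), 208 (2.93%) were at least 1.5-fold higher in the Cd7/Lmo1 cells of dataset 1 and 477 (6.73%) at least 1.5-fold lower. The choice of cells used the same contrast, so these shares are a background for the lists below and not a result. In dataset 2, 72 of 9119 genes (0.79%) were higher and 240 (2.63%) lower by that fold. Among genes counted in both datasets, 193 of the 208 higher genes of dataset 1 (92.8%) lay on the same side in dataset 2 and 18 were again past 1.5-fold, which is 8.65% of the calls of dataset 1 and 85.7% of the 21 of dataset 2. Of 460 lower genes, 430 lay on the same side and 147 were again past 1.5-fold (32.0% of the calls of dataset 1 and 86.5% of the 170 of dataset 2). No gene was called in opposite directions. Over all 9119 genes of dataset 2 the median log2 ratio was -0.004, so genes lay about evenly on both sides. The same rule chose the cells in both datasets, and the chosen cells had the higher median UMIs in each. The part of this shared choice in the agreement was not tested.

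**Figure D2:**
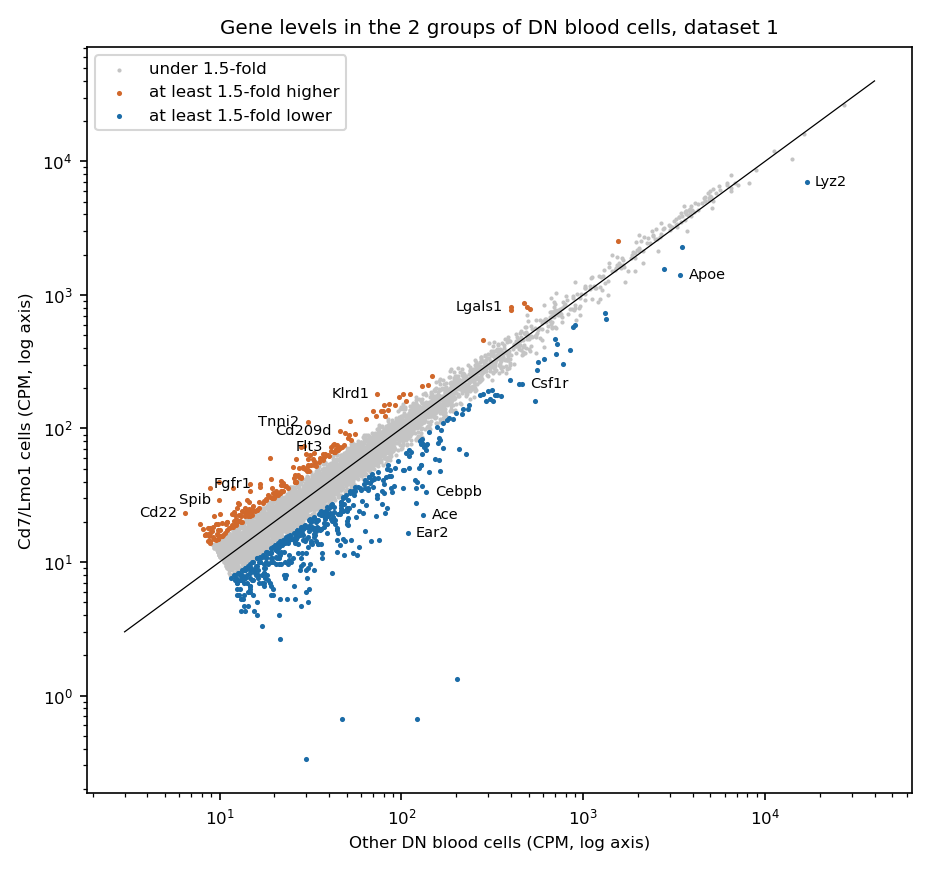
Level of each gene in Cd7/Lmo1 cells (vertical axis, CPM) and in other DN blood cells (horizontal axis, CPM) of dataset 1, both on log axes, without Cd7, Lmo1 and Mrc1. Points above the diagonal include Tnni2, Klrd1, Cd209d and Fgfr1, and points below it include Lyz2, Apoe, Csf1r, Ace and Ear2.

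The 12 genes with the largest ratios, chosen among genes with at least 50 CPM in the higher group, were Tnni2, Crip2, Nedd4, Snx21, Klrd1, L1cam, Plp2, Hmgn1, Cd209d, Rgl1, Lgals1 and Kif23. Tnni2, an inhibitory troponin subunit known from fast skeletal muscle, stood at 111 CPM in Cd7/Lmo1 cells and 30.6 CPM in the others (3.64, 3.05 to 4.35). Crip2, a LIM-domain protein, stood at 59.8 and 18.8 CPM (3.18, 2.51 to 4.02), and the ubiquitin ligase gene Nedd4 at 72.1 and 28.0 CPM (2.57, 2.11 to 3.15). Klrd1, which encodes the CD94 chain of natural killer receptors, stood at 181 and 73.8 CPM (2.46, 2.17 to 2.78). It was found in 46.5% of Cd7/Lmo1 cells and 19.9% of the others.

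Lgals1, the gene of galectin-1, was the most abundant of the 12 by CPM, at 813 and 403 CPM (2.02, 1.91 to 2.13). The adhesion gene L1cam stood at 58.8 and 26.4 CPM. In dataset 2 all 12 were again higher in the cells that met the rule, 6 of them past 1.5-fold, and for 11 the interval excluded a ratio of 1. The dataset 2 ratios ran from 1.11 for Rgl1 to 1.91 for Crip2, below the 2.01 to 3.64 of dataset 1. Tnni2 was at 101 and 68.8 CPM there (1.46), Nedd4 at 44.8 and 25.02 CPM (1.79), Klrd1 at 423 and 300 CPM (1.41) and Lgals1 at 627 and 415 CPM (1.51).

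The 12 genes with the smallest ratios were Ear2, Ace, Pglyrp1, Hmox1, Zfyve9, Fcgr4, Treml4, Klra2, Cebpb, Cd300ld, Sirpb1b and Tnfrsf1b. Ear2, an eosinophil-associated ribonuclease gene, stood at 16.6 CPM in Cd7/Lmo1 cells and 108 CPM in the others (0.154, 0.113 to 0.205). Ace, the angiotensin-converting enzyme gene, stood at 22.6 and 132 CPM (0.171). Cebpb, a transcription factor of monocytes and macrophages, stood at 33.6 and 137 CPM (0.245, 0.197 to 0.301), and Hmox1, the haem oxygenase gene, at 11.3 and 56.6 CPM (0.199). In dataset 2 all 12 were again lower and past 1.5-fold. Cebpb was at 14.5 and 69.2 CPM there (0.209) and Hmox1 at 3.05 and 27.6 CPM (0.111).

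A cluster of DN cells with CD43-high monocyte genes, described below, held 24 Cd7/Lmo1 cells and 414 others, and without it several of these ratios moved. Ear2 went to 0.425, Ace to 0.518 and Fcgr4 to 0.476, and Treml4 (0.808) and Pglyrp1 (0.861) no longer passed 1.5-fold. Cebpb (0.288), Hmox1 (0.298), Klra2 (0.278), Zfyve9 (0.265) and Sirpb1b (0.289) stayed past it. Over all genes, 154 were then higher and 256 lower, against 208 and 477 with the cluster. The 12 largest ratios were 1.66 to 3.05 without it.

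**Figure D3:**
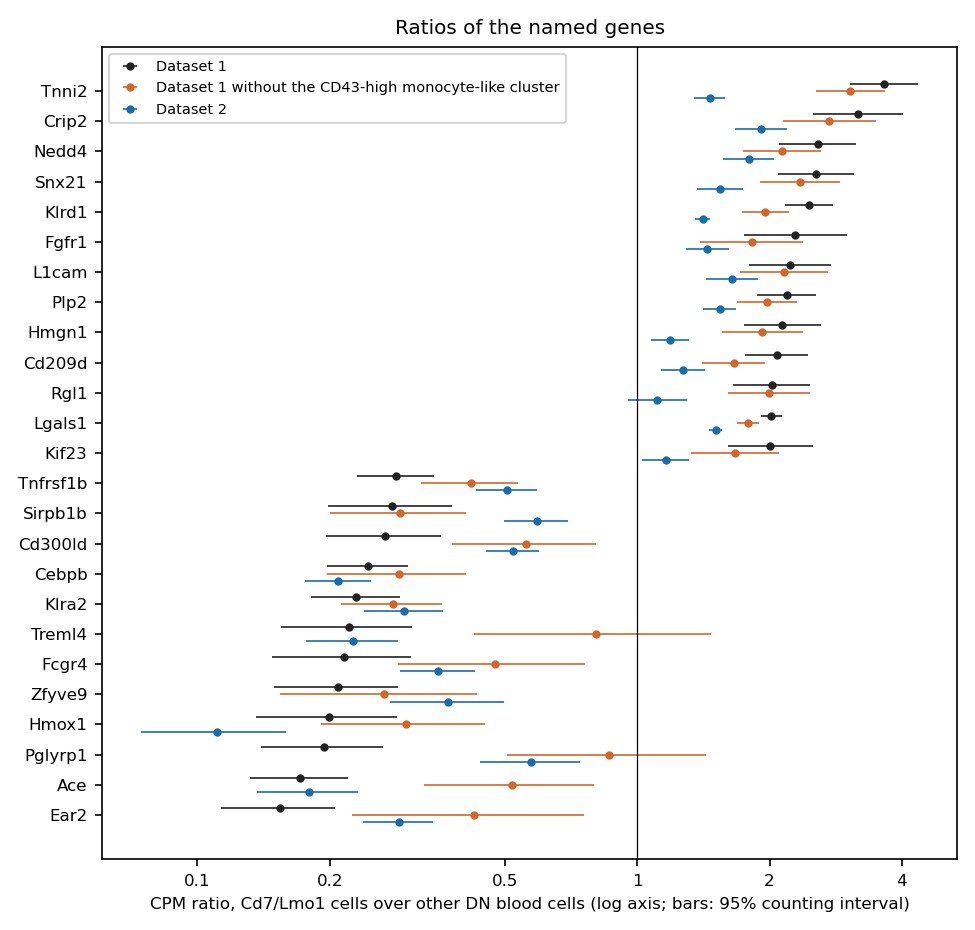
Ratio of the CPM in Cd7/Lmo1 cells to that in other DN blood cells (log axis, with 95% counting intervals) for the genes with the largest and smallest ratios and Fgfr1, in dataset 1, in dataset 1 without the CD43-high monocyte-like cluster, and in dataset 2. All 13 upper genes lie above 1 and all 12 lower genes below 1 in each of the 3 series, with Treml4 (0.808) and Pglyrp1 (0.861) nearest to 1 without the cluster.

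Monocyte genes were lower in the Cd7/Lmo1 cells. Of 20 CD43-high monocyte genes with enough UMIs, 0 were higher and 17 lower by 1.5-fold, with 0 and 14 of 21 in dataset 2. When the CD43-high monocyte-like cluster was left out, 1 was higher and 7 lower of 15. The summed level of the list was 1404 CPM in Cd7/Lmo1 cells, 2713 CPM in the other DN cells and 11683 CPM in sorted CD43+ monocytes. Of 16 Ly6C-high monocyte genes, 0 were higher and 7 lower, and 0 and 4 of 12 in dataset 2. Lyz2, which encodes a lysozyme, stood at 7039 and 16955 CPM in dataset 1 (0.415) and at 2623 and 5184 CPM in dataset 2 (0.506), and it was found in every Cd7/Lmo1 cell of dataset 1. Hp, the haptoglobin gene, stood at 35.6 and 120 CPM (0.296).

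Ly6c2, a gene of the sort gate, stood at 86.7 and 130 CPM, and at 1306 CPM in sorted Ly6C+ monocytes. The gate gene Csf1r, which encodes CD115, stood at 214 and 458 CPM (0.466) in dataset 1 and 144 and 212 CPM (0.678) in dataset 2. Ccr2, a chemokine receptor gene of monocytes, stood at 709 and 965 CPM (0.735) and at 592 and 733 CPM (0.808). The gated genes Itgam (191 and 237 CPM) and Sirpa (138 and 196 CPM) were present in both groups.

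Macrophage genes showed the same direction. Of 11, 0 were higher and 6 lower, and 0 and 7 of 12 in dataset 2. Apoe, the apolipoprotein E gene, stood at 1398 and 3411 CPM (0.410), and Maf, a transcription factor gene, at 7.64 and 30.1 CPM (0.254). The resident macrophage genes Timd4, Vsig4, Cd5l, Folr2, Lyve1 and Marco had 0 UMIs in the Cd7/Lmo1 cells. Of 23 interferon-stimulated genes, 12 were lower and 0 higher in dataset 1, for example the interferon-inducible Ifi204 at 50.2 and 124 CPM, but in dataset 2 only 1 of 24, Ifi204, was lower. The medians of the log2 ratios were -0.61 and -0.10, so the interferon difference of dataset 1 was not seen at that size in dataset 2.

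Dendritic cell genes were mixed. Of 15 core dendritic cell genes, 4 were higher and 1 lower, and 3 (Ap1s3, Kit and P2ry10) and 0 of 19 in dataset 2, beside a background of 2.93% and 0.79% of genes. The dendritic cell transcription factor gene Zbtb46 stood at 28.9 and 14.2 CPM (2.04, 1.51 to 2.76), Bcl11a at 181 and 101 CPM (1.78), the gene of the FLT3 ligand receptor, Flt3, at 72.4 and 41.1 CPM (1.76) and Kmo at 84.7 and 50.8 CPM (1.67). In dataset 2 the ratios were 1.18 for Zbtb46, 1.25 for Bcl11a, 1.19 for Flt3 and 1.21 for Kmo, all under 1.5-fold, so other members of the list passed there. The lower gene was Havcr2, at 23.9 and 46.4 CPM, and without the CD43-high monocyte-like cluster it was at a ratio of 0.827. There 2 of the 4 higher genes, Flt3 (1.43) and Kmo (1.34), no longer passed 1.5-fold, while Zbtb46 (1.68) and Bcl11a (1.54) did.

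Genes of dendritic cell subtypes did not follow 1 pattern. Of 9 cDC2 genes, Irf4 was higher (67.1 and 42.3 CPM, 1.59, and 1.26 without the CD43-high monocyte-like cluster) and Mgl2 (0.553) and Clec12a (0.651) were lower. Cd209a, a DC-SIGN family gene of cDC2s and related monocytes, stood at 578 and 481 CPM, and Clec10a at 364 and 468 CPM. Of 4 plasmacytoid dendritic cell genes counted, the transcription factor genes Spib (28.9 and 9.94 CPM, 2.91) and Runx2 (39.2 and 22.3 CPM, 1.76) were higher, and Ly6d, Klk1, Cox6a2, Pacsin1, Mzb1 and Atp1b1 had 0 UMIs. Of 6 cDC1 genes, the lectin receptor gene Clec9a was higher (35.9 and 11.9 CPM, 3.02) and Irf8 lower (102 and 157 CPM, 0.650). In dataset 2 Spib was at a ratio of 1.49, Clec9a at 1.28 and Irf8 at 0.730. Runx2 stood there at 18.6, 26.9 and 13.5 CPM in cells with Cd7 alone, both genes and Lmo1 alone. Its level was 20.1 CPM in cells with none of the 3 genes, and it was lowest in cells with Mrc1 alone. Irf4 stood at 64.97, 72.5 and 71.8 CPM in the same subsets of dataset 2, against 63.3 CPM with none and 61.6 CPM with Mrc1 alone. Of 15 genes on a list of MHC class II and antigen processing genes, H2-Oa was higher (118 and 64.0 CPM, 1.85, and 1.05 in dataset 2). The protease gene Lgmn was lower (0.472).

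The pathways of the named markers were tabulated from lists. Of 10 FGF receptor signalling genes with enough UMIs, the receptor gene Fgfr1 and the adaptor gene Sos1 (18.9 and 12.4 CPM, 1.53) were higher, and 2 genes of negative regulators, Dusp6 (25.3 and 83.6 CPM, 0.302) and Spred1 (18.3 and 32.2 CPM, 0.567), were lower. In dataset 2 0 of 11 passed 1.5-fold, with Dusp6 at 0.727, and with every cell thinned to 1000 UMIs Sos1 was at 0.923. Fgfr2 and Fgfr4 had 0 UMIs in the Cd7/Lmo1 cells. Of 15 LIM-only and LDB complex genes other than Lmo1, 0 passed 1.5-fold in either direction in dataset 1, and 0 of 16 in dataset 2. Lmo4, another LIM-only gene, stood at 373 and 318 CPM, Lmo2 at 65.5 and 73.5 CPM and Ldb1 at 11.0 and 15.2 CPM. On a list of 9 genes drawn up around CD7, the ligand genes Sectm1a and Sectm1b had 0 UMIs in the Cd7/Lmo1 cells. The listed genes Cd48 (165 and 130 CPM) and Cd244a (137 and 116 CPM) were under 1.5-fold. Lgals1, described above, was not on that list, so the list is not a full account of CD7 ligands.

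Of 16 C-type lectin genes, 2 were higher (Cd209d and Clec9a) and 7 lower, such as Clec4a3 (160 and 320 CPM), and 0 and 4 of 18 in dataset 2. Of 3 killer lectin receptor genes with enough UMIs, Klrd1 was higher and Klra2, an inhibitory Ly49 family gene, lower (27.6 and 120 CPM, 0.230), whereas Klrk1 stood at 110 and 90.2 CPM. Of 8 chemokine and lipid receptor genes, 1 was higher and 2 lower, with a median log2 ratio of -0.42, and 0 of 10 passed 1.5-fold in dataset 2. The higher one was Gpr183, an oxysterol receptor gene, at 173 and 97.2 CPM (1.78), and the lower ones were the sphingosine phosphate receptor genes S1pr2 (9.97 and 19.3 CPM) and S1pr5 (3.32 and 17.2 CPM). Of 19 cholesterol synthesis genes, 0 passed 1.5-fold, although 16 had a ratio above 1 and the median log2 ratio was 0.24 in dataset 1 and 0.20 in dataset 2. The largest of them was Fdps, at 145 and 101 CPM (1.43; 1.45 in dataset 2).

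Since Cd7 and Klrd1 are known from lymphocytes, marker lists of such cells were read in the Cd7/Lmo1 cells. Of 18 T cell genes, 11 had 0 UMIs, Cd3e, Cd3g, Trac and Lck among them, and the list summed to 6.65 CPM, against 9.04 CPM in the other DN cells. Of 12 natural killer cell genes, 8 had 0 UMIs, including Ncr1, Gzma, Gzmb, Prf1 and Eomes, and the list summed to 9.30 and 19.7 CPM. Of 12 innate lymphoid genes, 7 had 0 UMIs, Gata3 among them (17.9 and 17.2 CPM). Of 12 B cell genes, 4 had 0 UMIs, Ms4a1, Pax5 and Cr2 among them, and the list summed to 281 and 291 CPM, most of it Ighm at 211 and 222 CPM. The B cell gene Cd22, an inhibitory Siglec, stood at 23.3 and 6.48 CPM (3.59) and at 10.8 and 5.10 CPM in dataset 2 (2.13). The T cell and natural killer cell lists were thus at low sums over all Cd7/Lmo1 cells, and were not summed apart in those that had Cd7 or Klrd1.

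Signs of RNA from other cells were read in both groups. Lyz1 stood at 628 and 764 CPM and C1qa at 419 and 470 CPM, both abundant in the LysoDCs of the same library. Haemoglobin came to 2.66 CPM over all Cd7/Lmo1 cells, 8 of which had a haemoglobin UMI. It came to 450 CPM over all other DN cells, 29 of which had such a UMI. The counts of higher and lower genes were 208 and 472 without cells that had a haemoglobin UMI. The 12 neutrophil genes summed to 16.9 and 122 CPM, with 7 of them at 0 in the Cd7/Lmo1 cells and 3 of 3 eligible genes lower. Of these, S100a9 had 0 UMIs in the Cd7/Lmo1 cells and 31.6 CPM in the others, of which 72.4% came from 1 cell. Ribosomal protein genes took 25.6% and 22.8% of UMIs, and the median UMIs of a cell's own hashtag were 95.5 and 117. The part of these differences, and of depth, in the gene ratios was not tested.

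The Cd7/Lmo1 cells were not uniform: cells with Cd7 and cells with Lmo1 alone differed. Lyz2 stood at 4522 CPM in the 145 cells with Cd7 without Lmo1, 4396 CPM in the 199 with both and 10901 CPM in the 260 with Lmo1 without Cd7, against 18062 CPM in DN cells with Mrc1 alone and 18419 CPM in cells with none of the 3 genes. In dataset 2 Lyz2 stood at 1478, 1912, 3425, 7769 and 3723 CPM in the same order. Cells with Cd7 thus had the lowest Lyz2 in both datasets, with or without Lmo1.

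Mgl2, a lectin gene of cDC2s, stood at 38.7 CPM with Cd7 alone, 7.60 CPM with both and 151 CPM with Lmo1 alone in dataset 1, a ratio of Cd7 alone to Lmo1 alone of 0.256. In dataset 2 it stood at 75.6, 87.5 and 232 CPM (0.326, 0.276 to 0.385). Cebpb stood at 21.4, 8.55 and 62.9 CPM (0.340) in dataset 1 and at 5.10, 5.37 and 22.6 CPM (0.225) in dataset 2. Klra2 was also lower with Cd7 alone than with Lmo1 alone, at 10.7 and 51.3 CPM (0.208) and at 2.32 and 16.9 CPM (0.137).

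Higher with Cd7 alone than with Lmo1 alone were Tnni2 (145 and 64.6 CPM, 2.25; 132 and 82.4 CPM in dataset 2, 1.60), Crip2 (2.78 and 1.68 in the 2 datasets), Nedd4 (1.96 and 2.31), Lgals1 (1.39 and 1.45) and Klrd1 (226 and 141 CPM, 1.60; 482 and 379 CPM, 1.27). Spib stood at 34.7 and 8.28 CPM (4.19) in dataset 1, but in dataset 2 at 18.6 and 12.8 CPM (1.45, 0.957 to 2.17), where the interval included 1. Cd209d stood at 119 and 53.8 CPM (2.21) in dataset 1 and at 43.6 and 41.7 CPM (1.04, 0.812 to 1.33) in dataset 2, so its difference between the subsets was seen in dataset 1 alone. The subsets differed in depth, with medians of 5024, 5136 and 4535 UMIs in dataset 1 and 4012.5, 7719 and 6002 UMIs in dataset 2 for Cd7 alone, both and Lmo1 alone.

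**Figure D4:**
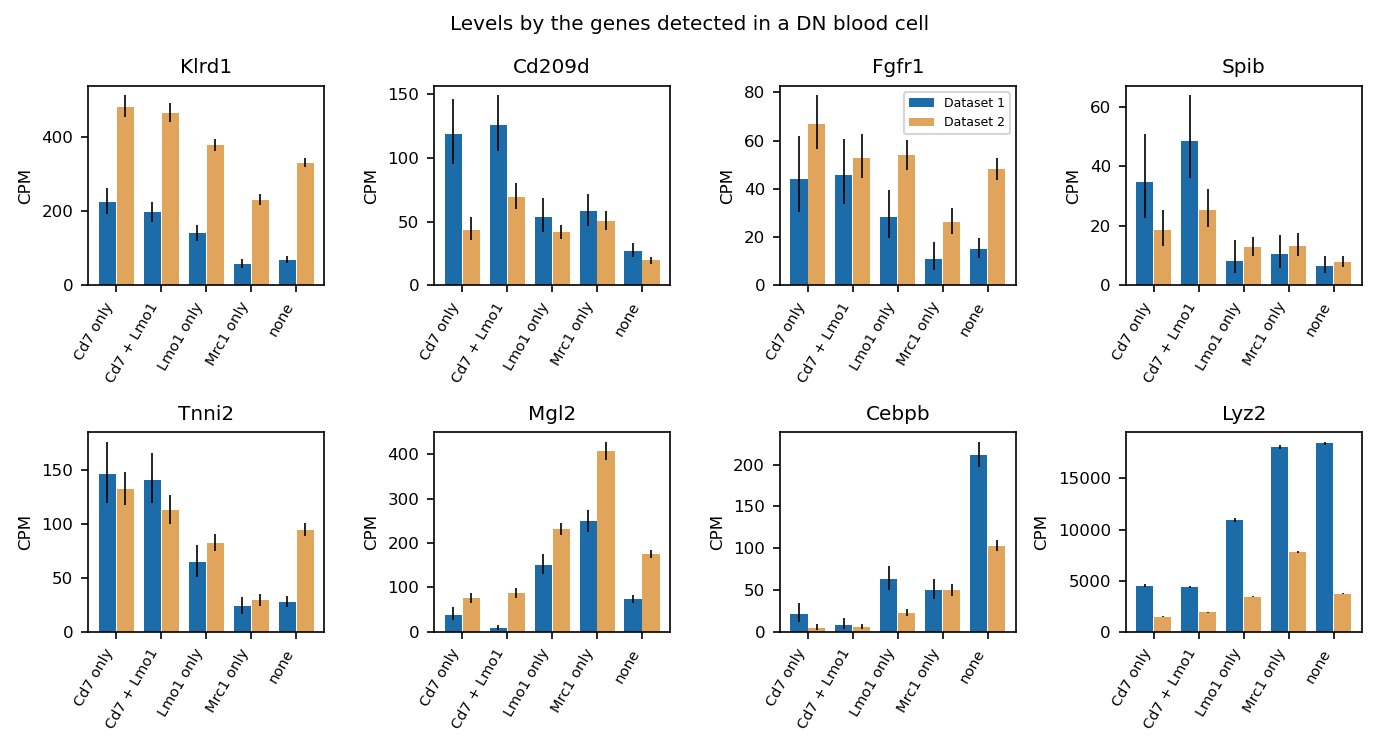
Level (CPM, vertical axes starting at 0, 95% Poisson intervals) of 8 genes in DN blood cells grouped by the genes detected: Cd7 only, Cd7 with Lmo1 and Lmo1 only (together the Cd7/Lmo1 cells), Mrc1 only, and none of the 3, in dataset 1 and dataset 2. In both datasets cells with Cd7 had less Mgl2, Cebpb and Lyz2 than cells with Lmo1 only, as with Lyz2 at 4522 and 10901 CPM in dataset 1.

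Against DN cells with Mrc1 alone in dataset 1, large ratios were found for Tnni2 (4.74), Snx21 (4.71) and Cd22 (8.91, 3.33 to 33.6). In dataset 2 Tnni2 stood at 29.1 CPM in the Mrc1 cells but at 94.2 CPM in cells with none of the 3 genes. The latter was above the 82.4 CPM of cells with Lmo1 alone and close to the 101 CPM of all cells meeting the rule. Hmgn1 stood at 63.3 CPM in cells with none there, against 68.7, 59.5 and 68.1 CPM with Cd7 alone, both and Lmo1 alone. Crip2 (21.4 CPM) and Lgals1 (438 CPM) were lower in cells with none than in each of these 3 subsets. In dataset 1 the cells with none of the 3 genes had Tnni2 at 27.7 CPM. Mgl2 stood at 73.1 CPM in Cd7/Lmo1 cells and 249 CPM in the Mrc1 cells (0.294, 0.248 to 0.348), but equal to cells with none of the 3 genes (73.1 CPM). Ccr2 was at 0.561 of the level in the Mrc1 cells and 0.877 of that in cells with none. Ear2 showed the reverse: it stood at 16.6 CPM in Cd7/Lmo1 cells, 9.79 CPM in the Mrc1 cells and 184 CPM in cells with none, and Ace at 22.6, 15.0 and 221 CPM. The lower levels of CD43-high monocyte genes such as Ear2 and Ace were thus shared with the Mrc1 cells.

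DN cells of dataset 1 were grouped without Cd7, Lmo1 and Mrc1 into 6 clusters, and Cd7/Lmo1 cells were found in each. They made up 134 of 222 cells in cluster 0 (60.4%, 53.6% to 66.8%), led by Emp1 and Crip2, 271 of 579 in cluster 1 (46.8%, 42.7% to 51.0%), led by Igkc, Spib and H2-Oa, and 84 of 191 in cluster 5 (44.0%), led by Dab2, Id3 and Cd72. They made up 43 of 216 cells (19.9%) in cluster 2, led by interferon-stimulated genes, and 48 of 472 (10.2%) in cluster 4, led by haemoglobin and S100a8 and S100a9. Haemoglobin was found in only 8 Cd7/Lmo1 cells and 29 other DN cells of all clusters. The leading genes of cluster 4 also included the Ly6C-high monocyte genes F13a1 (650 CPM, 184 in the other clusters) and Fn1 (321 and 89.6 CPM). In cluster 3, whose leading genes Fabp4, Ear2, Treml4 and Ace make it CD43-high monocyte-like, Cd7/Lmo1 cells were 24 of 438 (5.48%). Cluster 1 thus held 44.9% of the Cd7/Lmo1 cells and cluster 0 another 22.2%.

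The subsets were spread unequally over the clusters. Cells with both genes were 70 of the 134 Cd7/Lmo1 cells of cluster 0 and 97 of the 271 of cluster 1, but 4 of 43, 1 of 24 and 3 of 48 in clusters 2, 3 and 4. There, cells with Lmo1 alone were the most frequent, at 33, 21 and 39. Fgfr1 stood at 44.5 CPM in cluster 0, 44.8 CPM in cluster 1 and 47.0 CPM in cluster 5, and at 1.95, 0 and 3.28 CPM in clusters 2, 3 and 4. Within clusters, Lgals1 was higher in Cd7/Lmo1 cells than in the other cells of the cluster in 6 of 6 clusters, with an interval above 1 in each (ratios 1.24 to 1.83). Tnni2 was higher in 6 of 6 with an interval above 1 in 4, Klrd1 and Cd209d in 6 of 6 with such an interval in 2, and Crip2 and Snx21 in 6 of 6 with such an interval in 1. Some of these ratios rest on few UMIs or are near 1: in cluster 3 Klrd1 had 1 UMI against 0 and Cd209d 1 against 2, and in cluster 4 Cd209d was at 1.01 (0.466 to 1.96). Ear2 had no UMI in cluster 0 and was lower in the 5 other clusters, and Sirpb1b and Zfyve9 were lower in 6 of 6, each of the 3 genes with an interval below 1 in 1 cluster. Fgfr1 was higher in 4 of the 5 clusters with a UMI, with a median ratio of 1.08 against 2.29 over all DN cells. Other named genes also did not keep their direction in every cluster. Cebpb was lower in 4 of 6 (median ratio 0.806), with an interval excluding 1 in 0 of them. Treml4 was lower in 2 of 6 (median 1.19) and Fcgr4 in 3 of 6 (median 1.01). Ace, Cd300ld, Pglyrp1 and Tnfrsf1b were lower, and L1cam, Rgl1 and Kif23 higher, in 4 of 6. Klra2 and Hmox1 were lower, and Nedd4, Plp2 and Hmgn1 higher, in 5 of 6.

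**Figure D5:**
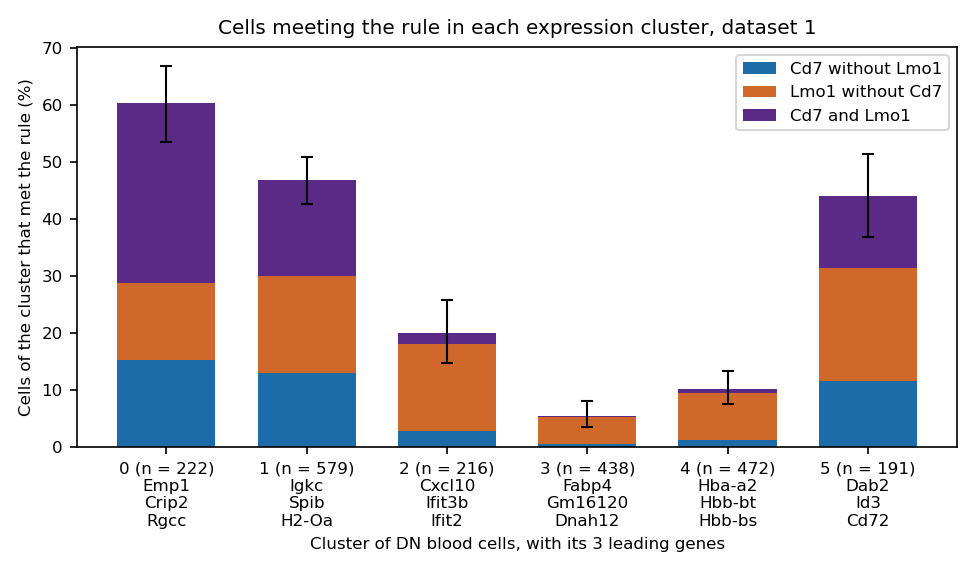
Share of the cells of each cluster of DN blood cells (%, with 95% exact binomial intervals on the total) that met the rule in dataset 1, divided by the genes detected. Clusters 0, 1 and 5 held 60.4%, 46.8% and 44.0% Cd7/Lmo1 cells, and cluster 3, led by Fabp4, held 5.48%.

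The genes that set the Cd7/Lmo1 cells apart were read in the other populations of dataset 1. Of the 208 higher genes, 150 (72.1%) were at a higher level in immature cDC2s than in Ly6C+ monocytes, and of the 477 lower genes 102 (21.4%), against 49.7% of all 7088 genes. Nedd4 was at 168 CPM in immature cDC2s and 2.94 CPM in Ly6C+ monocytes, Klrd1 at 127 and 1.22 CPM, H2-Oa at 366 and 2.20 CPM, Flt3 at 106 and 11.0 CPM and Zbtb46 at 62.7 and 0.245 CPM. Other genes were low in both: Crip2 was at 5.45 and 14.7 CPM, Fgfr1 at 2.85 and 0 CPM and Clec9a at 2.47 and 1.22 CPM, against 59.8, 38.2 and 35.9 CPM in the Cd7/Lmo1 cells. Lgals1 had the opposite order, with 103 CPM in immature cDC2s and 435 CPM in Ly6C+ monocytes. cDC2s came from another tissue and from untreated mice, so cell type, tissue and treatment cannot be told apart in these values.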

How the data were processed

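The authors deposited unnormalized counts of UMIs for every gene and hashtag in each barcode, as 1 matrix per dataset. Per the file headers they were written by Cell Ranger 6.0.1, whereas the submitters' processing notes name Cell Ranger 2.0.0 and mm10. Dataset 1 held 11878 barcodes and dataset 2 held 13111, with 32285 genes, of which 32235 matched the annotation; 37 barcodes occurred in both, 1 of them a Cd7/Lmo1 cell.

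Hashtags were called with HTODemux (Seurat 5.3.0, quantile 0.99, 100 clara samples), after barcodes without a hashtag UMI were set aside. Of the barcodes of dataset 1, 9069 carried a single hashtag. Another 2038 with more than 1 were taken out as doublets, and no other doublet removal was done. A minimum of 1000 UMIs and 500 genes and a maximum of 10% of UMIs from mitochondrial genes left 7878 and 7470 cells. The Cd7/Lmo1 cells summed to 3009319 UMIs and the other DN cells to 6638343 (10150022 and 18628738 in dataset 2).

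Counts were summed per group, divided by the total and scaled to 1000000 UMIs (CPM). Ratios have exact 95% counting intervals. Genes needed 100 UMIs over both sums. The cells were chosen by the contrast and each group was 1 sum per dataset, so no test was made. DN cells were clustered with scanpy 1.11.5 (2000 variable genes, 30 components, 20 neighbours, Leiden resolution 0.8). The calculation was tested on simulated counts. The 33 gene lists hold 518 genes, 512 of them in the files.

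Genes were named by rule: the 12 largest and 12 smallest ratios with at least 50 CPM in the higher group (without mitochondrial, ribosomal, haemoglobin, immunoglobulin and unnamed genes), the marker and gate genes, and up to 4 genes per list past 1.5-fold; others, such as Cd209a and Lmo2, were chosen after their values were seen. The cells and lists were chosen with earlier results of these data known.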

Additional observations from a re-analysis of the deposited data

How the results depend on the processing

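The number of Cd7/Lmo1 cells was 341 when 2 UMIs of Cd7 and Lmo1 together were required and 297 when cells were thinned to 1000 UMIs before the rule, and lay between 481 and 853 under the other settings, which included 2 hashtag thresholds and no condition on Mrc1. In dataset 2, 790 cells had 2 such UMIs, against 1666. Higher genes numbered 93 after thinning to 1000 UMIs, 374 with a minimum of 50 UMIs, 58 with 400 UMIs and 33 at 2-fold, against 208. Lower genes numbered 243 after thinning, 256 without the CD43-high monocyte-like cluster, 153 with 400 UMIs and 184 at 2-fold, against 477. The share of Cd7/Lmo1 cells in the cluster that held most of them was 44.9%, 82.5% at resolution 0.4 and 33.4% at 1.2, so cluster membership depends on the resolution. Of 77 named genes past 1.5-fold, 54 stayed past it under every setting run. Without the CD43-high monocyte-like cluster Fabp4 went from 0.189 to 3.52 and Nr4a1 from 0.516 to 1.33. Fabp4, a fatty acid binding protein gene, was at 0.377 CPM over the other clusters, so its 3.52 rests on few UMIs. Mgl2 went from 0.553 to 1.0003 against cells with none of the 3 genes, and Sos1 from 1.53 to 0.923 after thinning. The cause was not tested. The settings without that cluster, without cells with a haemoglobin UMI and with 500 clara samples were chosen after seeing the data. No paired analysis was possible because the results come from no test. A UMI count of 1 decides membership for many cells, and a cell without a UMI is not shown to lack the gene.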
